A study of Sus scrofa with 6 samples.

Results

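The members of this set are the nuclear genes of the mitochondrial respiratory chain and ATP synthase in weaned piglets. They were measured in the jejunum, the long absorptive stretch between duodenum and ileum. The rule that chose them used the symbol alone, and it was set with earlier results of these data known. It took rows outside the mitochondrial chromosome whose gene name begins with NDUF, UQCR, COX and a digit, or ATP5, or is CYC1 or SDH followed by A, B, C or D. This gave 79 genes of 24358 in the deposited table. There were 28 subunits of complex I, 3 of complex II, 5 of complex III, 14 of complex IV and 12 of complex V, 14 assembly factors, and 3 regulators or related proteins. The samples were whole jejunum of Large White by Landrace piglets, 3 libraries taken after transport (transport 1 to 3) and 3 from piglets that were not transported (control 1 to 3). The sources used here do not give the length of the journey, the age of the piglets or the time of sampling. Nothing in the labels ties the 3 libraries of a group to different piglets, so p-values measure the spread between these libraries, which may be technical.

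The respiratory chain sits in the inner mitochondrial membrane. Complex I takes electrons from NADH and complex II from succinate, complex III passes them on to cytochrome c, and complex IV hands them to oxygen. The protons pumped on the way drive complex V, the ATP synthase. Most subunits are encoded in the nucleus, made in the cytosol and imported, while the mitochondrial genome encodes a small core of complexes I, III, IV and V. Assembly factors help to build the complexes and are not part of the finished enzyme. In the small intestine, absorptive enterocytes carry many mitochondria, whose ATP drives the ion pumps that power nutrient uptake.

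Totals ran from 48208451 to 53739246 counts per library. Transport 3 stood apart, with a median correlation across genes with the other libraries of 0.818 in log2 CPM, the count put on 1 common library size with TMM factors, against 0.888 to 0.930 for the other 5. It held 3537 CPM of FABP6, the bile acid binding protein of the ileum, where transport 1 and 2 had 1.72 and 4.97 CPM and the 3 controls 1.75, 3.24 and 7.67 CPM. Of the other ileal markers listed, SLC10A2 (57.1 CPM) and CUBN (12012 counts, not tested) were also highest in transport 3. SLC51A and SLC51B were not. SLC51A had 169 CPM there, below transport 2 (175 CPM) and control 2 (189 CPM), and SLC51B was lowest there, at 170 CPM. Control 2 held 308 CPM in sum over 8 smooth muscle markers, against 4622 to 12497 CPM in the other 5 libraries. Counts and class medians, and the members that rest on these libraries, are given with and without them further on.

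No member passed the test between transport and control libraries, yet most members were lower after transport. In edgeR's quasi-likelihood test across all 12012 tested genes, 0 of 75 tested members had an adjusted p under 0.05. Over all genes 2 were called, both higher after transport (0.0167%). The smallest adjusted p of a member was 0.890 in edgeR, and 1 member, COX17, had an unadjusted p under 0.05, where 1.61% of all tested genes were lower and 3.52% higher at that level. In DESeq2, which called 50 genes in all (0.416%), no member was called either. By direction, 66 of the 75 members were lower after transport, against 43.1% of all tested genes. The median log2 fold change of the members was -0.31, against 0.07 for all tested genes. In bulk tissue, fewer cells of a type and less RNA per cell cannot be told apart.

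In 18 of the 75 members, which is 24.0%, all 3 transport libraries lay below all 3 controls in CPM, where 5.33% of all tested genes did. None lay above all controls, where 6.25% of all tested genes did. These 18 were NDUFA9, NDUFA10, NDUFA13, NDUFB8, NDUFB9, NDUFC1, NDUFV1 and NDUFV2 of complex I, CYC1 and UQCRQ of complex III, ATP5MC1, ATP5MC2, ATP5MC3, ATP5MD and ATP5PF of complex V, the assembly factors COX17 and NDUFAF4, and the ATP synthase inhibitor ATP5IF1. NDUFA13, NDUFB9 and NDUFC1 are named for this pattern after their values were seen. Complexes II and IV had no such member.

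The 4 members that were not tested did not reach 1 FPKM in 3 libraries. COX8H had 0 counts in all 6 libraries. COX6B2, a testis isoform in other mammals, had 19, 4 and 0 counts in transport 1 to 3 and 0 in each control. COX7B2 had 0, 0 and 3 counts after transport and 5, 0 and 0 in the controls. NDUFA4L2, a relative of the complex IV subunit NDUFA4, had 260, 146 and 648 counts after transport and 163, 144 and 232 in the controls, and reached at most 1.79 FPKM, the authors' unit of level per transcript length and sequenced fragments, in transport 3. Of the tested members, 73 reached 1 FPKM in all 6 libraries and 2 in 5 libraries, so no member passed the filter through 1 group alone.

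**Figure D1:**
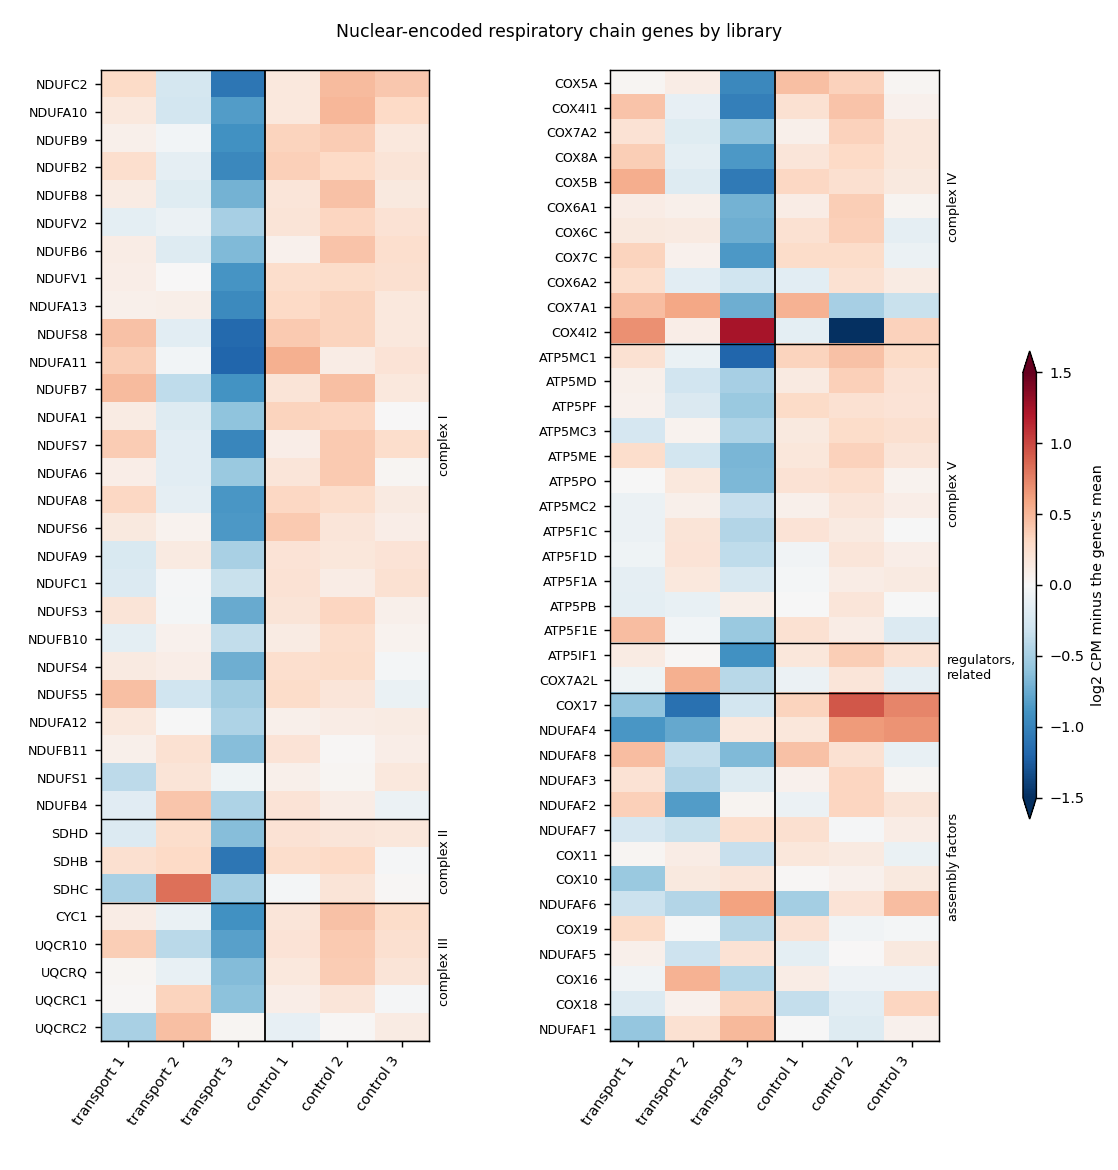
Centred log2 CPM of 74 of the 75 tested members (rows, by complex) in the 3 transport and 3 control libraries (columns, transport left of the line). Red is above and blue below the gene's own mean over 6 libraries, and the colour scale stops at 1.5. Transport 3 is the lowest library in 60 rows, of which 4 are among the 14 assembly factors.

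In complex I, the largest enzyme of the chain, all 28 tested subunits were lower after transport, with a median log2 fold change of -0.40 and a range from -0.60 to -0.10. None passed the test, and 8 had no overlap between the groups, where 5.33% of all tested genes were lower without overlap. NDUFV2, an iron-sulfur subunit of the NADH-binding module, had 97.2, 102 and 76.0 CPM in transport 1 to 3 and 122.7, 134 and 125 CPM in the controls. All 3 transport libraries lay below the lowest control, with an SD of 13.7 CPM after transport and 6.11 CPM in the controls. Its log2 fold change was -0.48 ± 0.24 (SE; adjusted p = 0.890, edgeR). NDUFV1, its partner that binds NADH and the flavin, had 152, 142 and 76.9 CPM after transport and 170.2, 171 and 168 CPM in the controls (log2 fold change -0.46 ± 0.31, SE). The controls agreed within a few CPM, and transport 3 was far below the other transport libraries.

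Among the accessory subunits, NDUFA10 had 179, 133 and 90.2 CPM after transport and 179.9, 228 and 198 CPM in the controls, with a log2 fold change of -0.59 ± 0.32 (SE). Transport 1 was only just under the lowest control. NDUFB8, an accessory subunit of the membrane arm that is widely used as a protein marker of complex I, had 126, 102 and 70.5 CPM after transport and 131, 157 and 127 CPM in the controls (-0.48 ± 0.29). NDUFB6, another subunit of that arm, had 57.6, 46.6 and 33.7 CPM after transport and 55.6, 71.4 and 63.4 CPM in the controls, and its groups overlapped through transport 1. NDUFA9, which lies near the junction of the 2 arms, had 89.2, 114 and 74.6 CPM after transport and 120.4, 118 and 120.1 CPM in the controls (-0.37 ± 0.25).

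The core subunit NDUFS1 differed less between the groups. This subunit, which carries iron-sulfur clusters, had 79.3, 119 and 99.5 CPM after transport and 109.6, 106 and 116 CPM in the controls, a log2 fold change of -0.16 ± 0.25 (SE). Transport 1, not transport 3, was its lowest library. The 7 core subunits, 11 NDUFA and other NDUFS accessory subunits and 10 NDUFB and NDUFC subunits, groups drawn after the values were seen, had medians of -0.40, -0.39 and -0.45. A further 20 complex I subunits had log2 fold changes from -0.60 to -0.10 and mean control levels of 55.2 to 234 CPM, and transport 3 was the lowest library in all 20. They include NDUFS7 and NDUFS8, which carry the last iron-sulfur clusters before the quinone, and NDUFS4 and NDUFS6, accessory subunits of the electron input arm whose loss causes complex I deficiency in humans.

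Complex II, succinate dehydrogenase, is also an enzyme of the citric acid cycle and has no mitochondrially encoded subunit. SDHC, a membrane anchor, had 97.0, 241 and 95.2 CPM in transport 1 to 3 and 133, 155 and 138 CPM in the controls. Transport 2 was far above and the other 2 transport libraries below all controls, so that the log2 fold change was 0.03 ± 0.41 (SE). SDHD, the other anchor, had 172, 238 and 128 CPM after transport and 231, 226 and 223 CPM in the controls (-0.34 ± 0.30). SDHB, the iron-sulfur subunit, had 258, 268 and 102 CPM after transport and 262, 267 and 214 CPM in the controls (-0.24 ± 0.40). In SDHB the difference rested on transport 3, and without it the log2 fold change was 0.051. In all 3 genes transport 2 was the highest of the 6 libraries and transport 3 the lowest.

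In complex III, 4 of 5 members were lower after transport, with a median of -0.47. Of these, 2 had no overlap (5.33% of all tested genes). CYC1, cytochrome c1, which passes electrons to cytochrome c, had 304, 262 and 149.8 CPM after transport and 319, 379 and 339.8 CPM in the controls, a log2 fold change of -0.54 ± 0.33 (SE; adjusted p = 0.890, edgeR). UQCRQ, a small subunit, had 96.8, 87.5 and 60.1 CPM after transport and 105, 124 and 109 CPM in the controls (-0.47 ± 0.27). UQCR10, another small subunit, had 154, 90.0 and 67.6 CPM after transport and 137, 156 and 139.8 CPM in the controls, and transport 1 lay within the control range. The 2 large core proteins had log2 fold changes nearer to 0. UQCRC1 had 313, 391 and 203 CPM after transport and 332, 353 and 306 CPM in the controls (-0.13 ± 0.31). UQCRC2 had 104, 199 and 149 CPM after transport and 134, 148 and 158 CPM in the controls (0.04 ± 0.30), with transport 1 below and transport 2 above all controls.

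In complex IV, cytochrome c oxidase, 9 of 11 tested members were lower after transport with a median of -0.31, and the groups overlapped in every one. COX4I1, the common form of subunit 4 and the member with the highest level in the set at 902 FPKM over all libraries, had 965, 655 and 353 CPM after transport and 842, 963 and 746 CPM in the controls (log2 fold change -0.37 ± 0.41, SE). Transport 1 was the highest of the 6 libraries and transport 3 the lowest. COX5B had the same order, with 470.4, 284 and 155 CPM after transport and 401, 381 and 359 CPM in the controls. COX8A, the second most abundant member at 497 FPKM, had 356, 249.8 and 152 CPM after transport and 312, 339 and 310.5 CPM in the controls. COX5A had 250.0, 265 and 125 CPM after transport and 336, 312 and 250.1 CPM in the controls, the largest difference of this complex below 0 (-0.49 ± 0.35). In transport 1, 6 of the 11 lay above all controls, where in the same library 10 of 12 complex V members lay below all controls. Of all tested genes, 27.6% lay above and 26.0% below the controls in that library.

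COX6A1, COX6C and COX7A2, 3 further structural subunits, had log2 fold changes of -0.31, -0.26 and -0.36, with standard errors of 0.32, 0.33 and 0.29. Without control 2 and transport 3 the values of COX4I1, COX6A1 and COX6C were 0.022, 0.0099 and 0.077, so those differences rested on these 2 libraries. COX6A2 and COX7A1 are the forms typical of heart and skeletal muscle. COX6A2 had 29.0, 21.6 and 19.6 CPM after transport and 21.6, 28.2 and 26.3 CPM in the controls. COX7A1 had 78.0, 84.2 and 33.9 CPM after transport and 81.3, 40.0 and 44.7 CPM in the controls, a log2 fold change of 0.24 ± 0.44. COX4I2, the form of subunit 4 known for its role in oxygen sensing in lung, was low throughout, with 2.87, 1.91 and 4.21 CPM after transport and 1.62, 0.383 and 2.28 CPM in the controls. Its log2 fold change of 1.07 ± 0.68 was the largest positive one of the set and did not pass the test (adjusted p = 0.890, edgeR). The lowest of these 6 values was that of control 2, the library low in smooth muscle markers, and the part of that in the difference was not tested.

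In complex V, the ATP synthase, all 12 members were lower after transport, with a median of -0.27 and a range from -0.59 to -0.04. Of the 12, 5 had no overlap (5.33% of all tested genes). The 3 genes of the c-ring, the rotor that turns as protons pass, encode the same mature protein with different import signals. ATP5MC1 had 269, 214 and 101 CPM after transport and 288, 311 and 281 CPM in the controls (log2 fold change -0.59 ± 0.38, SE). ATP5MC3 had 263, 325 and 228 CPM after transport and 347, 379 and 371 CPM in the controls (-0.43 ± 0.26). ATP5MC2 had 262, 292 and 218 CPM after transport and 294, 314 and 298 CPM in the controls (-0.23 ± 0.25). All 3 were without overlap, with a different order of the transport libraries in ATP5MC1 than in the other 2.

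ATP5PF, a peripheral stalk subunit known as coupling factor 6, had 178, 147 and 116 CPM after transport and 208, 199 and 197 CPM in the controls (-0.46 ± 0.26). ATP5MD, a small membrane subunit that helps ATP synthase dimers to hold together, had 116, 89.3 and 77.2 CPM after transport and 121, 139.6 and 128 CPM in the controls (-0.46 ± 0.25). ATP5PO, the stalk subunit that confers sensitivity to oligomycin and the third most abundant member at 365 FPKM, had 304, 341 and 190.4 CPM after transport and 353, 363 and 316 CPM in the controls (-0.31 ± 0.30). The F1 part, made of the head that makes the ATP and a central shaft, had smaller values. ATP5F1A, its alpha subunit, had 653, 799 and 604 CPM after transport and 703, 769 and 782 CPM in the controls (-0.13 ± 0.27). ATP5F1C, the gamma subunit in its shaft, had 279.8, 340.1 and 220.0 CPM after transport and 343, 328 and 297 CPM in the controls (-0.20 ± 0.27). The other 4 members, ATP5F1D, ATP5F1E, ATP5PB and ATP5ME, had log2 fold changes from -0.41 to -0.04, and transport 3 was the lowest library in 3 of them. The beta subunit of F1 carries no symbol and is not a member, and its log2 fold change was -0.09 ± 0.30. The median was -0.14 for the 4 F1 members, alpha, gamma, delta and epsilon, and -0.43 for the 3 c-ring genes. These groups were drawn after the values were seen, and the difference between them was not tested.

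**Figure D2:**
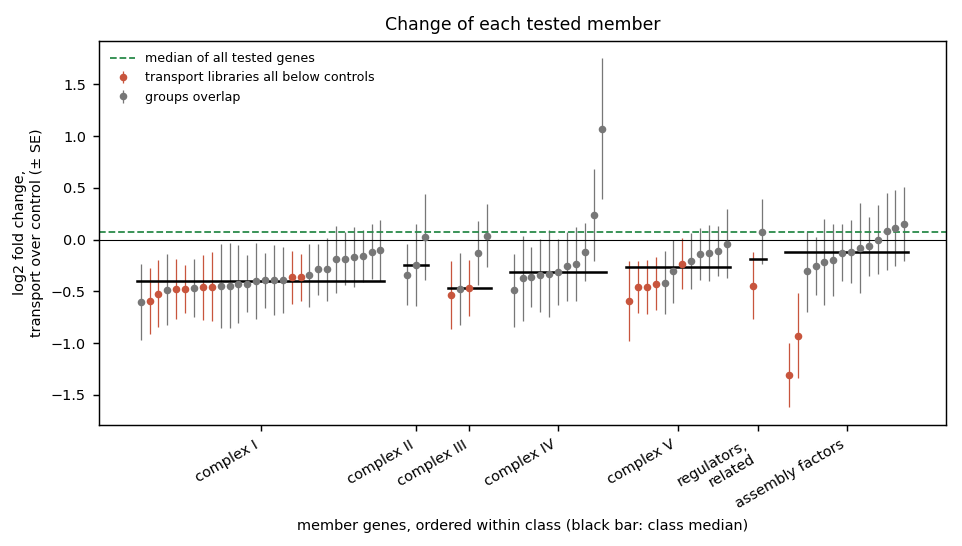
Log2 fold change of each tested member, transport over control, with its standard error (vertical bars), by class along the horizontal axis. Orange points are the 18 members whose transport libraries all lie below the controls, black bars are class medians (-0.40, -0.24, -0.47, -0.31 and -0.27 for complexes I to V), and the dashed green line is the median of all tested genes at 0.07.

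Among the regulators, ATP5IF1, which blocks the ATP synthase from running backwards, had 154, 144 and 75.7 CPM after transport and 159, 183 and 166 CPM in the controls (log2 fold change -0.44 ± 0.33, SE). COX7A2L, which joins complexes III and IV into supercomplexes, had 151, 229 and 119 CPM after transport and 149, 180.1 and 144 CPM in the controls (0.08 ± 0.31). Transport 2 was its highest library and transport 3 its lowest, the order that complex II also had.

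The 14 assembly factors, 8 of complex I and 6 of complex IV, had a median of -0.12, with 10 lower and 4 higher after transport. It was -0.20 without transport 3. They held the 2 members with the largest differences below 0 of the set. COX17, the chaperone that delivers copper to complex IV, had 46.3, 32.3 and 57.6 CPM in transport 1 to 3 and 88.2, 133 and 116 CPM in the controls. The highest transport library was well below the lowest control. In FPKM it averaged 53.7 ± 19.4 after transport and 125 ± 26.1 in controls (SD, n = 3 each). The log2 fold change was -1.31 ± 0.31 (SE; adjusted p = 0.890, edgeR). In DESeq2 it was -1.32 with an adjusted p of 0.0501, just short of the threshold of 0.05. With any 1 library left out the log2 fold change lay between -1.55 and -1.11, and without control 2 and transport 3 together it was -1.38 (edgeR adjusted p of 0.534 or higher in these 7 fits). COX17 lies on the plus strand of chromosome 13 at 140584286 to 140614159, in the coordinates of the deposited table. There it overlaps POPDC2 on the same strand, which had 461, 204 and 252 counts after transport and 405, 26 and 452 in the controls, against 2339, 1551 and 3469 counts of COX17 after transport and 4039, 6246 and 6173 in the controls. How the authors shared out reads of overlapping genes is not stated in the sources used here.

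NDUFAF4, an assembly factor of complex I, had 3.11, 3.35 and 6.32 CPM after transport and 6.40, 8.85 and 9.06 CPM in the controls, with counts of 157 to 381 after transport and 293 to 482 in controls. The groups were separate by less than 0.1 CPM (log2 fold change -0.93 ± 0.41, SE; adjusted p = 0.890, edgeR). NDUFAF3, with which it forms a complex in human cells, had 30.5, 19.4 and 22.9 CPM after transport and 27.3, 32.6 and 26.7 CPM in the controls (-0.25 ± 0.28). NDUFAF8 had 16.2, 9.20 and 7.47 CPM after transport and 16.0, 13.8 and 10.9 CPM in the controls (-0.31 ± 0.39). NDUFAF1, which acts in building the membrane arm of complex I, had 8.35, 14.6 and 17.4 CPM after transport and 12.4, 10.9 and 13.03 CPM in the controls (0.15 ± 0.36). COX10, which makes heme O, the precursor of the heme A of complex IV, had 12.1, 19.7 and 20.3 CPM after transport and 18.04, 18.6 and 19.8 CPM in the controls (-0.12 ± 0.30). In NDUFAF1 and COX10 transport 1 was the lowest library and transport 3, the lowest in most subunits, the highest. The other 8 assembly factors, among them COX11 and COX19, which act in the copper supply of complex IV, and COX18, which helps to insert a mitochondrially encoded subunit, had log2 fold changes from -0.22 to 0.11. Transport 3 was the lowest library in 3 of these 8 and the highest in 4. By level per length, the tested assembly factors had a median of 4.12 FPKM and the tested subunits of complexes I to V one of 64.6 FPKM.

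**Figure D3:**
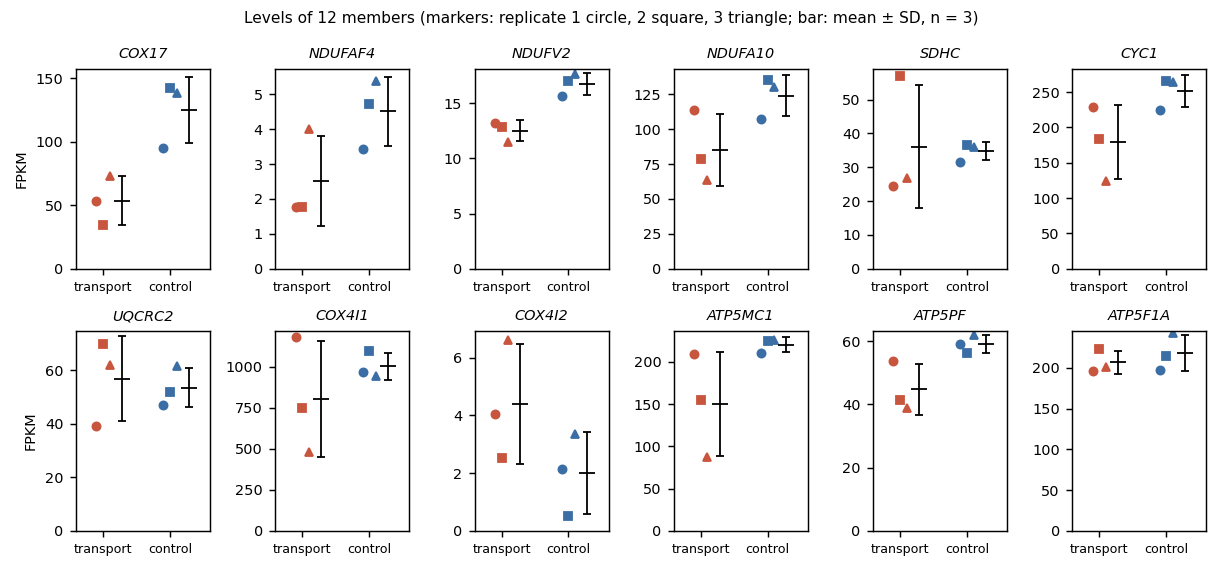
FPKM of 12 members in the 3 transport libraries (orange, left) and the 3 controls (blue, right), with the mean and SD of each group beside them (black). COX17 is separate between the groups, SDHC is high in transport 2 alone, and COX4I1 and ATP5MC1 are lowest in transport 3.

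The 3 transport libraries contributed unequally. Transport 3 was the lowest of the 6 libraries in 60 of 75 members, which is 80.0%, where it was the lowest in 29.5% of all tested genes. It was the lowest in 54 of the 59 tested subunits of complexes I to V and in 4 of the 14 assembly factors. The median difference of transport 3 from the mean of the other 5 libraries was -0.79 on the log2 scale for the subunits and 0.12 for the assembly factors. The assembly factors were not uniform in this. The median was 0.22 for the 8 of complex I, of which 1 was lowest in transport 3. For the 6 of complex IV it was -0.37, with 3 lowest there. For 32 tested chain factors outside the symbol rule it was -0.41, with 19 lowest in transport 3. Set against the 3 controls, transport 1 lay below all of them in 34 members (45.3%; 26.0% of all tested genes), transport 2 in 45 (60.0%; 28.6%) and transport 3 in 64 (85.3%; 34.9%). The share of all counts taken by the 79 members was 1.21%, 1.05% and 0.806% in transport 1 to 3 and 1.18%, 1.25% and 1.23% in control 1 to 3, so transport 1 lay within the control range and the other 2 transport libraries below it.

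**Figure D4:**
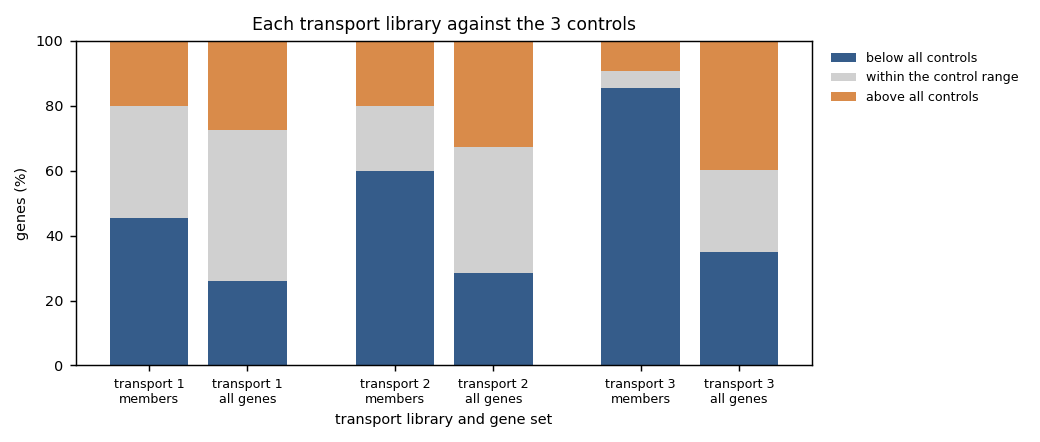
Percent of the 75 tested members and of all 12012 tested genes that lie below, within or above the range of the 3 controls in each transport library. The part below all controls is larger for the members than for all genes in each library, with 85.3% against 34.9% in transport 3.

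Without transport 3 the median log2 fold change of the members was -0.16, against 0.0046 for all tested genes. Then 62 of 75 members were lower (49.6% of all tested genes) and 20 had no overlap (10.9% of all tested genes). The class medians without it were -0.21, 0.051, -0.28, -0.056 and -0.19 for complexes I to V and -0.20 for the assembly factors. With control 2 left out as well, the median of the members was -0.12, 56 were lower (49.3% of all tested genes), and the medians of complexes II and IV were 0.13 and 0.022. Complexes I, III and V kept medians below 0 in this fit too, at -0.16, -0.19 and -0.11. Of the 41 members with a test that are described singly, 27 had a log2 fold change that moved by more than 1.5 times without transport 3, and 31 of the 35 below 0 came nearer to 0 or passed it. Without transport 3 the log2 fold change was -0.24 for NDUFV1, -0.32 for NDUFB8, -0.32 for CYC1, -0.28 for UQCR10, -0.17 for SDHD, -0.31 for ATP5MC1, -0.13 for ATP5PO and -0.22 for ATP5IF1. In complex IV it was -0.25 for COX5A, -0.10 for COX4I1, -0.11 for COX8A, -0.044 for COX5B and -0.20 for COX7A2. Among assembly factors it was -0.13 for NDUFAF8 and -0.27 for COX10, and larger in size for COX17 and NDUFAF4, at -1.55 and -1.36. NDUFV2, NDUFA10, NDUFA9, UQCRQ, ATP5MC2, ATP5MC3, ATP5MD and ATP5PF, all without overlap, moved by less than 1.5 times. Without control 2, COX4I2 was at 0.62, COX7A1 at 0.053, COX6A1 at -0.21, COX6C at -0.15 and NDUFAF3 at -0.15.

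Without transport 1 the number without overlap was 41 (12.6% of all tested genes), without transport 2 it was 28 (11.8%) and without control 3 it was 30 (8.51%).

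The control libraries were close to each other in these genes. The median coefficient of variation over the tested members was 31.2% among the transport libraries and 8.86% among the controls, while over all tested genes it was 37.4% after transport and 19.0% in controls. Control 2, low in smooth muscle markers, was the highest of the 6 libraries in 29 of 75 members.

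The ratio of paralogous subunits inside a library, which does not depend on scaling between libraries, was compared for 6 pairs with an exact two-sided permutation test. With 3 against 3 libraries its smallest possible p is 0.1. The log2 ratio of ATP5MC2 to ATP5MC3 in FPKM averaged -0.76 ± 0.07 after transport and -0.96 ± 0.04 in controls (SD, n = 3 each), a difference of 0.20 with no overlap (exact p = 0.1, adjusted p = 0.45). The ratio of COX4I2 to COX4I1 averaged -7.52 ± 1.17 after transport and -9.34 ± 1.53 in controls (exact permutation p = 0.3, n = 3 each). The difference of 1.82 was 0.957 without control 2 and 1.15 without transport 3. For COX7A1 to COX7A2 the difference was 0.60, for COX6A2 to COX6A1 it was 0.22 and for NDUFA4L2 to NDUFA4 it was 0.97. With 1 library left out these ran from 0.33 to 0.97, from 0.071 to 0.39 and from 0.50 to 1.51. For ATP5MC1 to ATP5MC3 the difference was -0.27, and 0.032 without transport 3. All adjusted p-values were 0.45 or higher, and no ratio can be called different or alike at this number of libraries.

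Other lists of mitochondrial genes give the setting of these members. A further 22 rows without a symbol are described as nuclear chain genes, 11 of them named by a reference, and 21 were tested. All 21 were lower after transport, with a median of -0.36, and 4 were without overlap (19.0%, against 5.33% of all tested genes). Among them SDHA, the flavoprotein of complex II, had a log2 fold change of -0.18, UQCRFS1, the Rieske protein of complex III, -0.25, NDUFA4 -0.37 and NDUFAB1, the acyl carrier subunit of complex I, -0.53. The 13 chain genes of the mitochondrial genome were also all lower, with a median of -0.41, and the groups overlapped in all 13. The ratio of their counts to those of the nuclear members was 9.28, 5.11 and 8.18 in transport 1 to 3 and 9.20, 6.81 and 6.15 in the controls. Transport 2 had the lowest ratio and transport 1 the highest, just above control 1, so the groups overlapped.

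Of 32 tested chain factors outside the symbol rule, 26 were lower, with a median of -0.25 and 0 called. Cytochrome c (CYCS), the carrier between complexes III and IV, had a log2 fold change of -0.58 ± 0.25 (SE) with no overlap. Of 16 citric acid cycle genes 14 were lower (median -0.23, 3 without overlap, 0 called), and of 12 tested genes for import, porins, chaperones and cristae all 12 were lower (median -0.42, 5 without overlap, 0 called). Of all tested genes, 43.1% were lower and 5.33% were lower without overlap. Of 15 tested regulators of mitochondrial biogenesis 6 were lower and 9 higher, with a median of 0.05 and 0 called. TFAM, which packages and transcribes mitochondrial DNA, had a log2 fold change of 0.12 ± 0.33, and PPARGC1A, the coactivator PGC-1alpha, 0.15 ± 0.54.

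**Figure D5:**
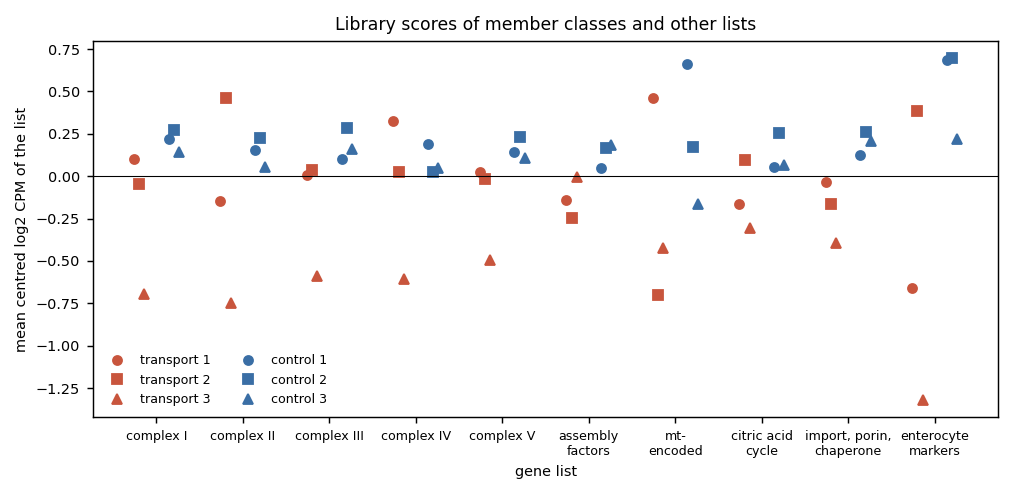
Mean centred log2 CPM of each list (horizontal axis) in every library, transport in orange left of control in blue, with circle, square and triangle for replicates 1, 2 and 3. Transport 3 is the lowest library for each of the complexes I to V (-0.50 to -0.75) and not for the assembly factors (-0.0037). The enterocyte list is -1.32 in transport 3.

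Markers of enterocytes moved with the members in part. Of the 12 enterocyte markers 11 were in the table and tested, and 9 were lower after transport, 4 without overlap (5.33% of all tested genes). Their mean centred log2 CPM was -0.66, 0.38 and -1.32 in transport 1 to 3 and 0.69, 0.70 and 0.22 in the controls, and their summed level ran from 8789.7 to 29137 CPM after transport and from 21648 to 41702 CPM in controls. Transport 3 had the lowest mean in both the enterocyte list and the chain subunits. Transport 1, second lowest in the enterocyte list, had a complex I score of 0.10 and a complex IV score of 0.32. Transport 3 was the lowest library in 7 of the 11 enterocyte markers. SI and ANPEP were above all controls there, at 850 and 3786.5 CPM against at most 517 and 2623 CPM. VIL1, at 655 CPM, lay within the control range. FABP1 and APOA4 were far below the controls, at 192 and 100 CPM against at least 2995.5 and 3065 CPM. T and NK cell markers ran the other way, with 8 of 8 higher after transport, 6 of them without overlap (6.25% of all tested genes). Their summed levels were 371 to 421 CPM after transport and 129 to 209 CPM in controls. The parts of enterocyte content, lymphocyte content and gut position in the values of the members were not tested.

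The members lay on 18 chromosomes, and some were close neighbours. Pairs less than 500 kb apart included NDUFS8 with NDUFV1 (88.3 kb) and NDUFS7 with ATP5F1D (125.5 kb) on chromosome 2, and NDUFAF3 with UQCRC1 (348.3 kb) on chromosome 13. Of the members, 40 overlap another row of the table and 11 do so on the same strand, so their counts depend on how reads were shared. The length behind the FPKM, worked out here from counts and FPKM and not from transcript models, also went with the differences. Members of up to 2 kb had a median log2 fold change of -0.40 (n = 36) and longer ones -0.20 (n = 39). All tested genes had -0.07 up to 2 kb and 0.10 above. The part of length in the members' values was not tested further.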

How the data were processed

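Jejunum RNA was extracted with Trizol and sequenced on libraries from Illumina protocols, per the labels. The authors deposited, per the file headers, a count per gene and library and an FPKM value (a count of 0 is written as 0.0001). Aligner, counting tool, strand use and genome build: not given in the sources used here. Transport columns carry another prefix than the label and were matched on their group with its replicate number.

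The members, gene lists and the rule for named genes were chosen with earlier results of these data known. The rule took the 4 smallest p per class, the 3 highest and 3 lowest by FPKM, and a fixed set of subunits, of which 1 is not reported here. Of 6907 rows with a bare identifier, 951 got a symbol from the gene name reference (annotation Sscrofa11.1).

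Counts were tested with edgeR 4.0.16 in R 4.3.3 (quasi-likelihood test, TMM factors 0.936 to 1.12, group as the only factor, Benjamini-Hochberg over the 12012 genes that reached an FPKM of 1 in 3 or more of 6 libraries). CPM use these factors, and standard errors come from the F statistic. Without overlap means that every transport library lay below, or above, every control. List scores are means of log2 CPM (prior count 2), centred over 6 libraries. Ratios of paralogs used log2(FPKM + 0.01). The common biological coefficient of variation was 0.473. The fit was tested on simulated data. Alternatives were DESeq2 1.42.0, limma 3.58.1 on log2(FPKM + 1) and log2(FPKM + 0.1), other scalings and filters, left-out libraries and the replicate number as a block. Deviations from the group mean were correlated across genes between transport and control libraries. Equal numbers gave r = 0.217, 0.111 and 0.187, and others -0.261 to 0.101. These small values, from 3 libraries a group, cannot show whether the numbers pair the libraries. What a number marks is not in the labels.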

Additional observations from a re-analysis of the deposited data

How the results depend on the processing

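No member passed an adjusted p of 0.05 in any fit run, and the members' median log2 fold change stayed below 0 in all, from -0.45 to -0.12. The number of genes called over the whole table, 2 in edgeR, was 50 with DESeq2, 1 with limma on log2(FPKM + 1), 1 with limma on log2(FPKM + 0.1), 1 with a mean FPKM of at least 5, 1 without control 2 and transport 3, and 0 to 3 with 1 library left out. Members lower without overlap numbered 18 to 41 with 1 library left out. The share of all tested genes also rose in these fits, to between 8.26% and 12.6%, from 5.33% with all libraries. With the replicate number as a block, 69 members were lower, the median was -0.37 and 2 genes were called in all, and no call on a member changed. The complex III median was -0.19 without control 2 and transport 3. The cause was not tested for these.

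Of 41 named members with a test, 12 changed sign in some fit, none past the threshold. SDHC was -0.054 with upper quartile scaling, -0.047 with limma on log2(FPKM + 1), -0.050 with limma on log2(FPKM + 0.1), -0.12 with quantile normalization and -0.12 with the replicate block, and -0.56 to 0.25 with 1 library left out. UQCRC2 was -0.039 with upper quartile scaling and -0.00883 with the block, and -0.22 to 0.25 with 1 left out. With quantile normalization ATP5F1A was 0.018 and NDUFAF1 -0.020. With 1 library left out NDUFAF1 ran from -0.10 to 0.40, SDHB from -0.46 to 0.051, UQCRC1 from -0.36 to 0.061, COX10 from -0.27 to 0.088, COX7A2L from -0.22 to 0.24 and the ATP5MC1 to ATP5MC3 ratio from -0.57 to 0.032. Without control 2 and transport 3, NDUFAF1 was -0.15, SDHB 0.13, UQCRC1 0.14, COX4I1 0.022, COX6A1 0.0099, COX6A2 0.071 and COX6C 0.077.

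The median of all genes lay between -0.0068 and 0.11 across scalings, tools and filters, while that of the members lay between -0.37 and -0.29. Standard errors of 0.22 or more on single members limit what 3 libraries a group can show.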
